A study of Homo sapiens with 6 samples.

Results

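A set of 8 genes of the red cell membrane was followed through phorbol ester treatment of K562 cells: the glycophorin genes GYPB, GYPE and GYPC, the Rh-associated glycoprotein gene RHAG, the band 3 gene SLC4A1, and the genes of the membrane skeleton EPB42, ANK1 and SPTB. Accessible sites were assigned to a gene when they overlapped its interval extended by 50000 bases on each side. This gave 177 of the 181135 sites in the deposited table: 13 for GYPB, 16 for GYPE, 14 for GYPC, 9 for RHAG, 28 for SLC4A1, 17 for EPB42, 50 for ANK1 and 30 for SPTB. None of the 177 sites lay in the windows of 2 of the 8 genes. K562, an established human line that began as a myeloid leukaemia was the cell used, and the labels give its genotype as WT. The cells received 25 nM PMA (phorbol 12-myristate 13-acetate, an activator of protein kinase C) for 0, 6 or 72 h, a treatment meant to induce a megakaryocyte-like state, with changes of medium on the way. Accessibility was measured by Omni-ATAC, in which a transposase inserts adapters into open chromatin, in 2 libraries per time. The labels do not say whether those came from separate cultures, so p-values measure the spread between these libraries only, which may be technical.

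Mature red cells keep their shape through a spectrin mesh under the membrane, held to it at sites where ankyrin grips the anion exchanger band 3 and at sites where glycophorin C meets protein 4.1. The glycophorins, band 3 and the Rh complex carry many of the blood group antigens. In erythroid cells these genes are known as targets of the transcription factor GATA1 and of KLF1, which binds CACCC boxes, whereas phorbol esters are known to act on AP-1 sites, which FOS and JUN proteins recognise.

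The bases before the gene starts are shown first. They were taken from RefSeq (GRCh38.p14), which gave promoter sequence for 6 of the 8 genes, and run 5′ to 3′ on the strand of the gene, which is the minus strand for all but GYPC. Capitals mark the GATA motif, searched on both strands as AGATAA, then as AGATAG, then with a leading T as TGATAA, and lastly as TGATAG. The EPB42 stretch is chr15:43221019-43221268 and holds 250 bases that end at the base before the start. The RHAG stretch (chr6:49636840-49636989), the SPTB stretch (chr14:64879908-64880057) and the GYPC stretch (chr2:126656008-126656157) are the last 150 bases before each start. The GYPB stretch (chr4:144019379-144019528) and the GYPE stretch (chr4:143905599-143905748) are the corresponding 150 bases of both genes.
EPB42: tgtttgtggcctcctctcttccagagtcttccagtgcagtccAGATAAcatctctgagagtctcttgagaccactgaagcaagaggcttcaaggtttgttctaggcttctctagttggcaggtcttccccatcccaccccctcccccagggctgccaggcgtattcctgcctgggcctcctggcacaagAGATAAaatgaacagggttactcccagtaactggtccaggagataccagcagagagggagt
RHAG: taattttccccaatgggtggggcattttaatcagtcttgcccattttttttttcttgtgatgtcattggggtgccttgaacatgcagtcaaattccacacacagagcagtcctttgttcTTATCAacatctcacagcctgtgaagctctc
GYPC: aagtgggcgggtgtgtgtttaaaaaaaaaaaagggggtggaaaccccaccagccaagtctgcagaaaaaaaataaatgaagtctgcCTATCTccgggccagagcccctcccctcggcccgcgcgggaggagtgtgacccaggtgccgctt
SPTB: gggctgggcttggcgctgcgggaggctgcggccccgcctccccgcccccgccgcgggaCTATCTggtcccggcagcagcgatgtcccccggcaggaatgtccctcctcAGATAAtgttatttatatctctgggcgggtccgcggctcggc
GYPB: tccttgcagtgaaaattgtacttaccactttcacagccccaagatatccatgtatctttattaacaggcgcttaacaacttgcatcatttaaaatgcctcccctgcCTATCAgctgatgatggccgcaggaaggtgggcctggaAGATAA
GYPE: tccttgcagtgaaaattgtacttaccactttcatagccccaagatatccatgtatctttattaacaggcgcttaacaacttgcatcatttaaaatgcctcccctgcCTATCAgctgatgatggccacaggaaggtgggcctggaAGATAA

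The GYPB and GYPE stretches were identical in 148 of 150 bases. How reads that map to both copies were counted is not given in the sources used here, so all values at GYPB and GYPE are uncertain as to which copy the reads came from. Over the 250 bases before each listed start there were 8 windows, 2 each for GYPB and SPTB, of which the GYPB windows overlap. A GATA match was found in 7 of the 8 windows, against 17.9% of 22198 promoters of protein-coding genes. SPTB's start inside the gene was the window without one. CACCC boxes (CACCC, both strands) were in 6 of 8 windows against 58.4% of all promoters. The AP-1 motif (TGACTCA or TGAGTCA, both strands) was in 0 of 8 against 3.45%. The ETS motif (CCGGAAG or CAGGAAG, both strands) was in 3 of 8 against 20.2%, and those 3 were the near-identical GYPB and GYPE windows. CCAAT was in 2 of 8 against 32.7%, at RHAG and at the upstream SPTB start. These matches describe letters only, and neither binding nor its absence follows from them.

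Reads over all sites summed to between 12258890 and 35548737 counts per library, and both the lowest and the second highest total belonged to the 6 h libraries. Among marker genes, 6 of 7 for K562 had a peak over their start in both 0 h libraries, the exception being KLF1. The same held for 2 of 3 T cell markers (CD3E and CD3D), 0 of 3 B cell markers and 2 of 3 monocyte markers (SPI1 and LYZ), and the part of other cells in the results was not tested. Values per site are given as CPM, the counts relative to the library's total with libraries scaled to each other by TMM. A site was called higher or lower at a Benjamini-Hochberg adjusted p under 0.05 in edgeR's quasi-likelihood test, fitted to all sites, and all adjusted p-values are from that test. With 4 other scalings the median change of all sites moved by between −0.19 and 0.30 (log2) at 6 h and by between −0.38 and 0.97 at 72 h. The direction of a small change therefore rests on the scaling, and the number of the 5 scalings under which a call held is given beside the results. In bulk libraries, fewer cells with an open site and less opening per cell cannot be told apart.

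The sites of the 8 genes lost accessibility more often than sites elsewhere did. Of the 177, 175 passed the filter on low counts, and 2 weak sites, 1 each at GYPC and ANK1, did not. At 6 h, 49 sites were lower than at 0 h and 31 higher, which is 28.0% and 17.7%, where 16.8% of all tested sites were lower and 23.4% higher. At 72 h, 77 sites were lower than at 0 h (44%) and 33 higher (18.9%), where 29.2% of all tested sites were lower and 38.2% higher. By gene, the share lower at 6 h was below that of all tested sites at SPTB (13.3%) and RHAG (11.1%) and above it elsewhere. The share lower at 72 h was below that of all tested sites at EPB42 (23.5%) and above it at the other genes. From 6 to 72 h, 54 fell (30.9%) and 18 rose (10.3%), against 20.9% and 22.1% of all tested sites. This last count leaned on single libraries: 29 fell and 10 rose without replicate 1 of 72 h, 27 and 9 without replicate 2 of 72 h, and 10 rose without replicate 1 of 6 h. Calls in opposite directions by 6 h and from 6 to 72 h, each over 1 on the log2 scale, were made at 4 of the 175 sites, against 3.11% of all tested sites. The 2 comparisons with 0 h share the same 0 h libraries.

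The median change of these sites was −0.28 on the log2 scale at 6 h and −0.56 at 72 h, while that of all tested sites was 0.05 and 0.29. Set against the median of all sites, that of the 8 genes differed by −0.34 at 6 h and by −0.855 at 72 h. With the other scalings this difference lay between −0.33 and −0.34 at 6 h and between −0.77 and −0.86 at 72 h. Of these, only loess offsets (−0.34 at 6 h and −0.77 at 72 h) could move it much, because they vary with a site's level. The rest use 1 factor per library and shift all sites nearly alike, so their agreement was fixed in advance. Of the 175 sites, 106 lay below the median of all sites at 6 h and 122 at 72 h. The split of the calls did depend on scaling. With TMM factors from sites under a peak in all 6 libraries, 45 were lower and 73 higher at 72 h, while the counts at 6 h were 34 and 40. With total counts 60 were lower and 55 higher at 72 h. Loess offsets gave 71 lower and 24 higher at 6 h, and at 72 h 93 and 24. Under all 5 scalings 32 sites were lower and 22 higher at 6 h, while at 72 h 43 were lower and 23 higher. Shares of all tested sites under the other scalings are not given here, so these counts alone do not set the 8 genes apart. The median of all tested sites at 72 h was −0.09 with loess offsets, 0.79 with total counts and 1.26 with factors from shared peaks.

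Start sites made up 14 of the 177. These overlapped 1000 bases on either side of a listed start or, for SLC4A1 and ANK1, of either gene end, so that 1 of the 14 lay at the lower end of ANK1. At 6 h 8 of 14 were lower and 1 was higher, at 72 h 12 were lower and 0 higher, and from 6 to 72 h 10 fell and 1 rose. Without the site at the lower end of ANK1 the numbers lower were 7, 11 and 9 of 13. The background of gene starts likewise took either gene end for the 4191 protein-coding genes with no listed start. Sites over starts of protein-coding genes in general, so defined, were lower in 38.3% at 6 h, in 73.0% at 72 h and in 65.7% from 6 to 72 h, and higher in 8.23%, 9.69% and 5.02%. The count at 72 h was thus near that of other gene starts. The median change of the 14 sites was −0.78 at 6 h and −1.52 at 72 h, and that of all sites over gene starts −0.38 and −1.21. Under all 5 scalings, 7 of the 14 were lower at 6 h and 8 at 72 h, for which no share of other gene starts is given here. The plot of start sites by library shows them gene by gene.

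**Figure D1:**
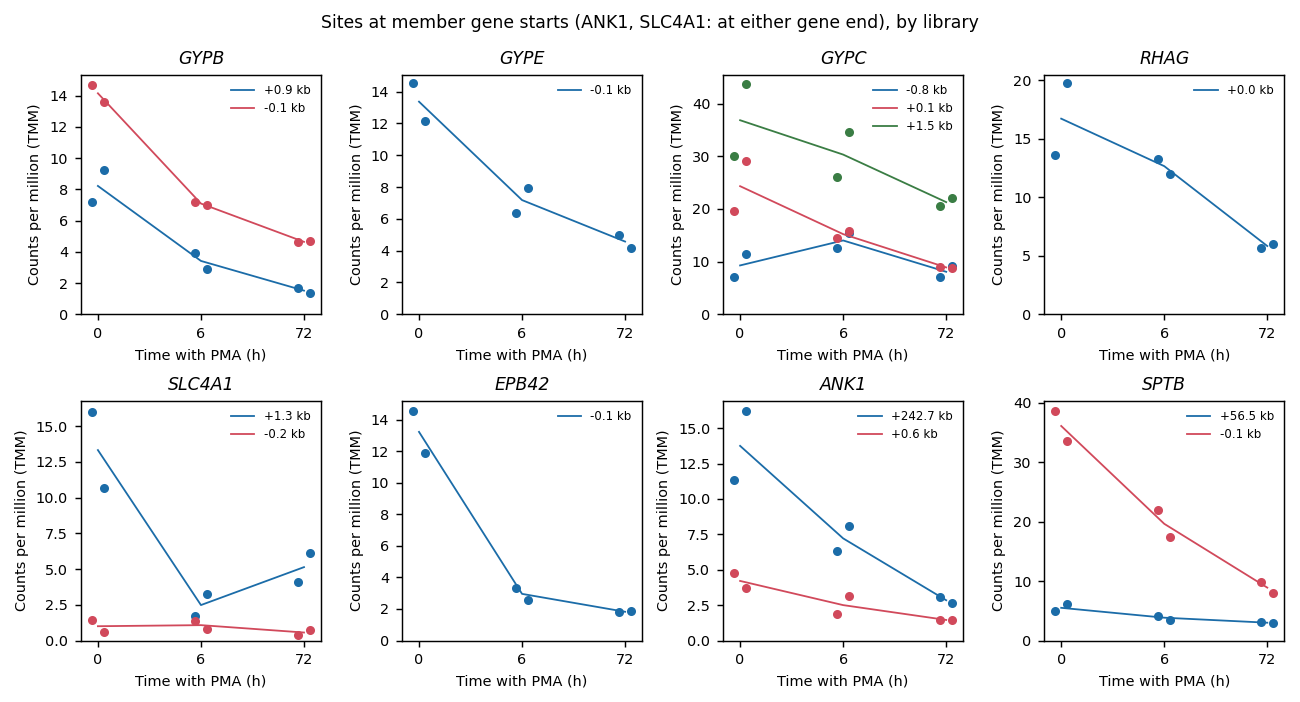
Each panel gives the sites over 1 gene's start (for SLC4A1 and ANK1, at either gene end), with hours of PMA on the x axis and TMM-scaled CPM on the y axis. Points are libraries, lines join the means of 2 libraries, and colours are sites labelled by the distance of their centre from the start. The ANK1 site at +242.7 kb lies at the lower gene end. EPB42 and SLC4A1 +1.3 kb had their largest drop by 6 h, while RHAG dropped mainly after 6 h.

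GYPB encodes glycophorin B, the carrier of the S and s antigens, and lies at chr4:143995188-144019380. The site over its start (chr4:144019070-144019870) had 14.7 and 13.6 CPM at 0 h, 7.16 and 7.02 at 6 h, then 4.60 and 4.67 at 72 h. The groups were ordered by time without overlap. The log2 fold change was −1.0 ± 0.21 (SE, adjusted p = 0.00076) at 6 h and −1.61 ± 0.21 (adjusted p = 9.1e-07) at 72 h, lower under all 5 scalings at both times. The next site, centred at +0.9 kb, fell further, from 7.21 and 9.22 CPM to 1.68 and 1.34 at 72 h, a log2 fold change of −2.45 ± 0.28.

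Among the distal sites of GYPB, meaning those over no listed gene start, the strongest at 0 h was centred at +43.6 kb (chr4:143975391-143976160), past the far end of the gene. It had 17.6 and 16.9 CPM at 0 h, 1.19 and 2.15 at 6 h, then 1.53 and 1.32 at 72 h. Nearly all of its loss was thus in place by 6 h, and the 6 h and 72 h libraries overlapped. The log2 fold change was −3.26 ± 0.28 (adjusted p = 6.9e-09) at 6 h and −3.60 ± 0.26 (adjusted p = 5.6e-10) at 72 h. The site at +58.2 kb (chr4:143960720-143961607) also fell by 6 h, with 6.95 and 7.98 CPM at 0 h, 1.36 and 0.854 at 6 h, then 1.06 and 1.01 at 72 h. Inside the gene, the site at +12.7 kb (chr4:144006354-144006944) went on falling, from 6.30 and 11.8 CPM at 0 h through 2.30 and 1.96 to 1.14 and 0.330 at 72 h, a log2 fold change of −3.65 ± 0.40 at 72 h. Its fall from 6 to 72 h (−1.52) was −0.82 and not called without replicate 2 of 72 h, and −2.60 without replicate 1 of 72 h. At +18.7 kb the log2 fold change was −1.20 ± 0.25 at 6 h and −1.45 ± 0.24 at 72 h, the latter called under 4 of 5 scalings. Of GYPB's 11 distal sites, 6 were lower and 1 was higher at each time. Sites away from gene starts in general were lower in 14.3% at 6 h and 24.3% at 72 h, and higher in 25.1% and 41.5%.

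GYPE, a glycophorin gene of the same cluster, lies at chr4:143870864-143905559. The site over its start (chr4:143905337-143906019) had 14.6 and 12.2 CPM at 0 h, 6.39 and 7.97 at 6 h, then 4.99 and 4.15 at 72 h. These levels were close to those at GYPB, as were the log2 fold changes of −0.87 ± 0.23 at 6 h and −1.55 ± 0.22 at 72 h. The strongest distal site, at +50.7 kb (chr4:143854481-143855246), had 20.7 and 20.4 CPM at 0 h, 4.18 and 3.45 at 6 h, then 3.21 and 2.38 at 72 h. No library after PMA reached the 0 h level, and the log2 fold change was −2.46 ± 0.24 (adjusted p = 4.0e-08) at 6 h and −2.88 ± 0.23 at 72 h. Within the gene the site at +25.7 kb fell by 1.46 at 6 h and by 1.77 at 72 h on the log2 scale. A weaker site at +17.2 kb (chr4:143888143-143888662) went on falling after 6 h, with 3.83 and 4.44 CPM at 0 h, 1.36 and 1.58 at 6 h, then 0.259 and 0.566 at 72 h. Its log2 fold change from 6 to 72 h was −1.83 ± 0.42 (adjusted p = 0.0014), and −1.34 without replicate 1 of 72 h, where the call was lost. Of 15 distal sites at GYPE, 7 were lower and 2 higher at 6 h, and 10 were lower and 0 higher at 72 h. All named GYPE sites were lower than at 0 h under all 5 scalings at both times.

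GYPC encodes glycophorin C, the carrier of the Gerbich antigens and the partner of protein 4.1, and lies at chr2:126656158-126696667. Its start region held 3 sites that moved differently. The one over the start (chr2:126655817-126656699) had 19.6 and 29.0 CPM at 0 h, 14.6 and 15.9 at 6 h, then 9.05 and 8.75 at 72 h. It fell by 0.68 at 6 h (adjusted p = 0.0086) and by 1.46 at 72 h (adjusted p = 1.3e-06) on the log2 scale, the first under 4 and the second under 5 of 5 scalings. The call at 6 h was lost without replicate 2 of 0 h (−0.36) and without replicate 1 of 6 h (−0.62). The site at +1.5 kb (chr2:126657048-126658350) had 30.0 and 43.7 CPM at 0 h, 26.0 and 34.7 at 6 h, then 20.5 and 22.1 at 72 h, and was called lower at 72 h under 2 of 5 scalings (−0.79, and −0.50 without replicate 2 of 0 h). The site at −0.8 kb (chr2:126654908-126655738) had 7.08 and 11.5 CPM at 0 h, 12.6 and 15.4 at 6 h, then 7.01 and 9.13 at 72 h. This was the 1 start site higher at 6 h (log2 fold change 0.60 ± 0.24, adjusted p = 0.048), under 3 of 5 scalings. Without 1 library (replicate 1 of 0 h, replicate 2 of 6 h or either one of 72 h) this call was lost, at 0.24 to 0.54, and without replicate 2 of 0 h the change was 1.0. The site then fell by 0.81 between 6 and 72 h, a call that was lost without replicate 2 of 6 h (−0.59) and without replicate 1 of 72 h (−0.58).

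Upstream of GYPC, 2 sites fell by 6 h on either side of one that passed no test against 0 h with TMM. The site at −10.9 kb (chr2:126644676-126645814) had 47.9 and 54.2 CPM at 0 h, 10.7 and 7.15 at 6 h, then 6.91 and 5.42 at 72 h. At 0 h this was more per kb than any site over a start of the 8 genes, 44.8 CPM per kb against at most 28.3. The log2 fold change was −2.56 ± 0.20 (adjusted p = 2.8e-09) at 6 h and −3.05 ± 0.20 (adjusted p = 1.8e-10) at 72 h. At −5.0 kb (chr2:126650892-126651466) the libraries held 10.7 and 10.1 CPM at 0 h, 0.937 and 0.980 at 6 h, then 0.854 and 0.613 at 72 h. That is a log2 fold change of −3.42 ± 0.31 (adjusted p = 2.1e-08) at 6 h and −3.82 ± 0.30 at 72 h, and both sites were lower under all 5 scalings. Between them, the site at −7.8 kb (chr2:126647743-126649026) had 14.4 and 10.9 CPM at 0 h, 14.6 and 14.2 at 6 h, then 14 and 13.4 at 72 h. There the 0 h libraries overlapped those of both later times, with a log2 fold change of 0.12 ± 0.19 at 72 h. Across the scalings this change ran from −0.06 to 1.09, and it was called higher under 2 of 5.

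One distal site of GYPC moved the other way. Past the far end of the gene, at +64.4 kb (chr2:126719823-126721211), the libraries held 2.01 and 1.24 CPM at 0 h, 3.41 and 4.49 at 6 h, then 13.6 and 18.1 at 72 h. The rise came mainly after 6 h. Its log2 fold change was 1.34 ± 0.31 at 6 h, 3.31 ± 0.29 (adjusted p = 3.4e-09) at 72 h and 1.97 ± 0.25 between 6 and 72 h, higher than at 0 h under all 5 scalings. The change at 6 h was 1.04 without replicate 2 of 6 h and then missed the threshold. Of 10 tested distal sites of GYPC, 4 were lower and 2 higher at 6 h, and 5 were lower and 2 higher at 72 h.

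RHAG encodes the Rh-associated glycoprotein, without which the Rh antigens do not reach the cell surface, and lies at chr6:49605175-49636839. Its start site (chr6:49636431-49637187) had 13.6 and 19.8 CPM at 0 h, 13.3 and 12 at 6 h, then 5.69 and 5.97 at 72 h. The log2 fold change was −0.41 ± 0.21 at 6 h, which missed the threshold (adjusted p = 0.12), and −1.52 ± 0.21 (adjusted p = 1.9e-06) at 72 h, lower under all 5 scalings. The change at 6 h was −0.71 and called without replicate 1 of 0 h, and −0.11 without replicate 2 of 0 h. The strongest distal site, at −9.6 kb (chr6:49646040-49646896), had 34.2 and 36.1 CPM at 0 h, 20.5 and 20.3 at 6 h, then 12.9 and 14.9 at 72 h. It fell by 0.79 at 6 h and by 1.34 at 72 h, under all 5 scalings. At −25.6 kb (chr6:49662179-49662617) the values were 2.53 and 2.29 CPM, then 1.62 and 1.04, then 0.285 and 0.236. This weak site had a log2 fold change of −2.27 ± 0.48 (adjusted p = 0.00062) from 6 to 72 h. The site at +80.2 kb, inside C6orf141, had 8.38 and 8.07 CPM at 0 h, 15.5 and 12.4 at 6 h, then 7.24 and 5.89 at 72 h, so that it rose by 6 h (0.75 ± 0.22, under 4 of 5 scalings) and fell again after it (−1.07 ± 0.21). The rise was not called without replicate 1 of 6 h (0.59). Of RHAG's 8 distal sites 1 was lower and 1 higher at 6 h, and 4 were lower and 0 higher at 72 h.

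SLC4A1 encodes band 3, the chloride and bicarbonate exchanger that carries the Diego antigens, and lies at chr17:44248390-44268135. The tables used give no strand for it, and distances were counted from its upper end, from which the gene is known to be read. The site at +1.3 kb (chr17:44266441-44267153) had 16.0 and 10.7 CPM at 0 h, 1.70 and 3.26 at 6 h, then 4.11 and 6.15 at 72 h. It dropped by 6 h and came back in part, with no overlap between any 2 times. Log2 fold changes were −2.32 ± 0.30 (adjusted p = 2.5e-06) at 6 h, −1.37 ± 0.27 (adjusted p = 0.00015) at 72 h and 0.95 ± 0.30 (adjusted p = 0.014) between 6 and 72 h. The loss held under 5 of 5 scalings at 6 h and 4 of 5 at 72 h. The return was not called without replicate 1 of 6 h (0.65) or without replicate 2 of 72 h (0.70), and was 1.64 without replicate 2 of 6 h. A weak site at −0.2 kb, with 1.43 and 0.573 CPM at 0 h and 0.414 and 0.707 at 72 h, passed no test with TMM, but was called lower at 72 h without replicate 2 of 0 h (−1.34) and stood at −0.038 without replicate 1 of 0 h.

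The 2 distal sites of SLC4A1 with the highest mean CPM over all libraries lay before the gene. At −20.4 kb (chr17:44288062-44289016) the libraries held 44.8 and 37.2 CPM at 0 h, 20.5 and 20.2 at 6 h, then 15.9 and 14.2 at 72 h. This is a log2 fold change of −1.01 ± 0.16 at 6 h and −1.44 ± 0.16 (adjusted p = 1.1e-07) at 72 h, lower under all 5 scalings. At −11.9 kb (chr17:44279526-44280593) the change was smaller, from 26.3 and 23 CPM at 0 h to 15.9 and 17.1 at 72 h, and its sign turned with loess offsets and with factors from shared peaks. Its log2 fold change of −0.58 was −0.53 and no longer called without replicate 1 of 72 h. The site at −13.8 kb (chr17:44281807-44282026), which lies between them, went from 2.86 and 1.62 CPM through 0.937 and 0.506 to 0.207 and 0.118, a log2 fold change of −3.74 ± 0.54 (adjusted p = 3.1e-06) at 72 h. In the other direction, the site at +59.6 kb (chr17:44208272-44208806), inside UBTF, had 0.0650 and 0.812 CPM at 0 h, 4.35 and 7.08 at 6 h, then 4.71 and 5.05 at 72 h. Those 0 h values rest on 1 and 17 counts, and its log2 fold change was 3.59 ± 0.46 (adjusted p = 2.0e-06) at 6 h and 3.32 ± 0.45 at 72 h. With 1 library left out these ran from 2.80 to 6.42 and from 2.57 to 6.13, the upper ends being without replicate 2 of 0 h. Of 20 distal sites 4 were lower and 2 higher at 6 h, and 9 were lower and 3 higher at 72 h.

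EPB42 encodes protein 4.2, which binds band 3 and ankyrin. The gene lies at chr15:43197227-43225737, and the start RefSeq's promoter table lists lies inside that interval. The site over this start (chr15:43220697-43221578), which covers the EPB42 sequence printed above with its 2 GATA matches, had 14.6 and 11.9 CPM at 0 h, 3.32 and 2.59 at 6 h, then 1.78 and 1.86 at 72 h. With TMM this was the largest loss among start sites at 72 h, with a log2 fold change of −2.19 ± 0.26 (adjusted p = 6.4e-07) at 6 h and −2.85 ± 0.25 (adjusted p = 4.6e-09) at 72 h, lower under all 5 scalings. The distal site strongest at 0 h, at −9.8 kb (chr15:43230380-43231197), took another course, with 15.4 and 12.4 CPM at 0 h, 2.47 and 2.59 at 6 h, then 10.1 and 10.5 at 72 h. It was lowest at 6 h in both libraries, at a log2 fold change of −2.44 ± 0.24 (adjusted p = 5.3e-08), and rose by 2.02 ± 0.24 (adjusted p = 1.4e-06) from 6 to 72 h. At 72 h its log2 fold change from 0 h was −0.42 ± 0.21 (adjusted p = 0.072), which turned to 0.54 with factors from shared peaks and was −0.58 and called without replicate 2 of 0 h. At −28.9 kb (chr15:43249511-43250229), inside TGM5, values were 7.08 and 6.78 CPM at 0 h, 8.35 and 8.57 at 6 h, then 11.9 and 11.7 at 72 h, higher at 72 h under all 5 scalings (0.77 ± 0.21). Of 14 distal sites of EPB42, 3 were lower and 1 higher at 6 h, while 2 were lower and 5 higher at 72 h.

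ANK1 encodes ankyrin-1, which ties band 3 to the spectrin mesh. It is the longest of the 8 genes, at chr8:41653225-41896741, and the tables used give no strand for it. Distances were counted from its upper end, from which it is known to be read. The site at that end (chr8:41895809-41896392) had 4.74 and 3.68 CPM at 0 h, 1.87 and 3.13 at 6 h, then 1.45 and 1.46 at 72 h, a log2 fold change of −0.68 ± 0.32 (adjusted p = 0.096) at 6 h and −1.52 ± 0.32 (adjusted p = 0.00024) at 72 h, the latter under 4 of 5 scalings. Without replicate 2 of 6 h the change at 6 h was −1.21 and was called. At the other gene end (chr8:41653577-41654564) the libraries held 11.3 and 16.2 CPM at 0 h, 6.31 and 8.13 at 6 h, then 3.05 and 2.64 at 72 h. That site fell by 0.91 at 6 h and by 2.28 at 72 h (adjusted p = 5.9e-08), under all 5 scalings, though at 6 h it was −0.62 and not called without replicate 2 of 0 h.

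The most open sites of ANK1 lay within the gene and, on the log2 scale, fell more after 6 h than by 6 h. No start inside ANK1 was listed, so a site over such a start would be counted here as distal. The site at +98.7 kb (chr8:41797220-41798825) had 54.4 and 71.3 CPM at 0 h, 37.2 and 42.5 at 6 h, then 15.2 and 15.6 at 72 h, a log2 fold change of −0.66 ± 0.16 at 6 h and −2.03 ± 0.16 (adjusted p = 1.3e-09) at 72 h. The groups did not overlap, and the call held under 4 of 5 scalings at 6 h and all 5 at 72 h. At 6 h it was −0.44 and not called without replicate 2 of 0 h. The site at +68.2 kb (chr8:41827944-41829131) had 47.3 and 61.1 CPM at 0 h, 43.6 and 46.2 at 6 h, then 22.1 and 23.8 at 72 h, and its fall of 1.24 at 72 h was called under 3 of 5 scalings. Against these, the site at +178.8 kb (chr8:41717550-41718348) had 0.780 and 1.53 CPM at 0 h, 15.8 and 20.1 at 6 h, then 9.10 and 10.4 at 72 h. It opened early and closed in part, with a log2 fold change of 3.92 ± 0.29 (adjusted p = 1.0e-09) at 6 h, 3.03 ± 0.29 at 72 h and −0.89 ± 0.22 between them, and was above 0 h under all 5 scalings. The partial closing was not called without replicate 2 of 6 h (−0.64) or without replicate 1 of 72 h (−0.74). Of 46 distal sites at ANK1, 13 were higher and 7 lower at 6 h, and 12 were higher and 13 lower at 72 h.

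SPTB encodes erythroid beta-spectrin, which forms the mesh together with alpha-spectrin, and lies at chr14:64746283-64879907. The site over its upstream start (chr14:64879118-64880854) had 38.5 and 33.6 CPM at 0 h, 21.9 and 17.4 at 6 h, then 9.83 and 7.97 at 72 h. It fell without overlap at each step, by 0.89 ± 0.18 (adjusted p = 0.00041) at 6 h and by 2.02 ± 0.18 (adjusted p = 5.9e-09) at 72 h, under all 5 scalings. At the second listed start, +56.5 kb inside the gene, levels were 4.94 and 6.07 CPM at 0 h, 4.18 and 3.51 at 6 h, then 3.05 and 2.95 at 72 h, and the loss at 72 h was called under 3 of 5 scalings. Without replicate 2 of 0 h (−0.72) or replicate 2 of 72 h (−0.86) it was not called. Within the gene the strongest distal site, at +38.2 kb (chr14:64840995-64842478), had 21.1 and 22.9 CPM at 0 h, 15.6 and 17.2 at 6 h, then 9.47 and 8.77 at 72 h, lower at 72 h under 4 of 5 scalings.

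Other sites of SPTB opened while the site over its start lost accessibility. The site at −9.5 kb (chr14:64889075-64889653) had 0.260 and 0.334 CPM at 0 h, 3.58 and 2.43 at 6 h, then 2.56 and 2.22 at 72 h, from 4 and 7 counts at 0 h, and its log2 fold change was 3.25 ± 0.47 (adjusted p = 8.6e-06) at 6 h. Past the far end of the gene, at +159.5 kb (chr14:64720038-64720726) inside PLEKHG3, the libraries held 1.17 and 1.53 CPM at 0 h, 9.80 and 10.2 at 6 h, then 10.9 and 13.2 at 72 h. This site was open by 6 h and remained so, at a log2 fold change of 2.87 ± 0.27 at 6 h and 3.14 ± 0.27 (adjusted p = 2.7e-09) at 72 h. It stood among 5 sites between +153.3 and +172.0 kb, singled out after their values were seen, which were all higher at 72 h under all 5 scalings. The change was 2.68 to 3.14 in 4 of them, and for the other, with 0 and 2 counts at 0 h, no fold is given. At +180.7 kb (chr14:64698906-64699481) a weak site had 1.30 and 1.24 CPM at 0 h, 0.341 and 0.411 at 6 h, then 2.46 and 1.20 at 72 h. Of SPTB's 26 distal sites, 8 were higher and 3 lower at 6 h, and 10 were higher and 7 lower at 72 h. The map of changes along the genes sets these sites beside those of the other 7 genes.

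**Figure D2:**
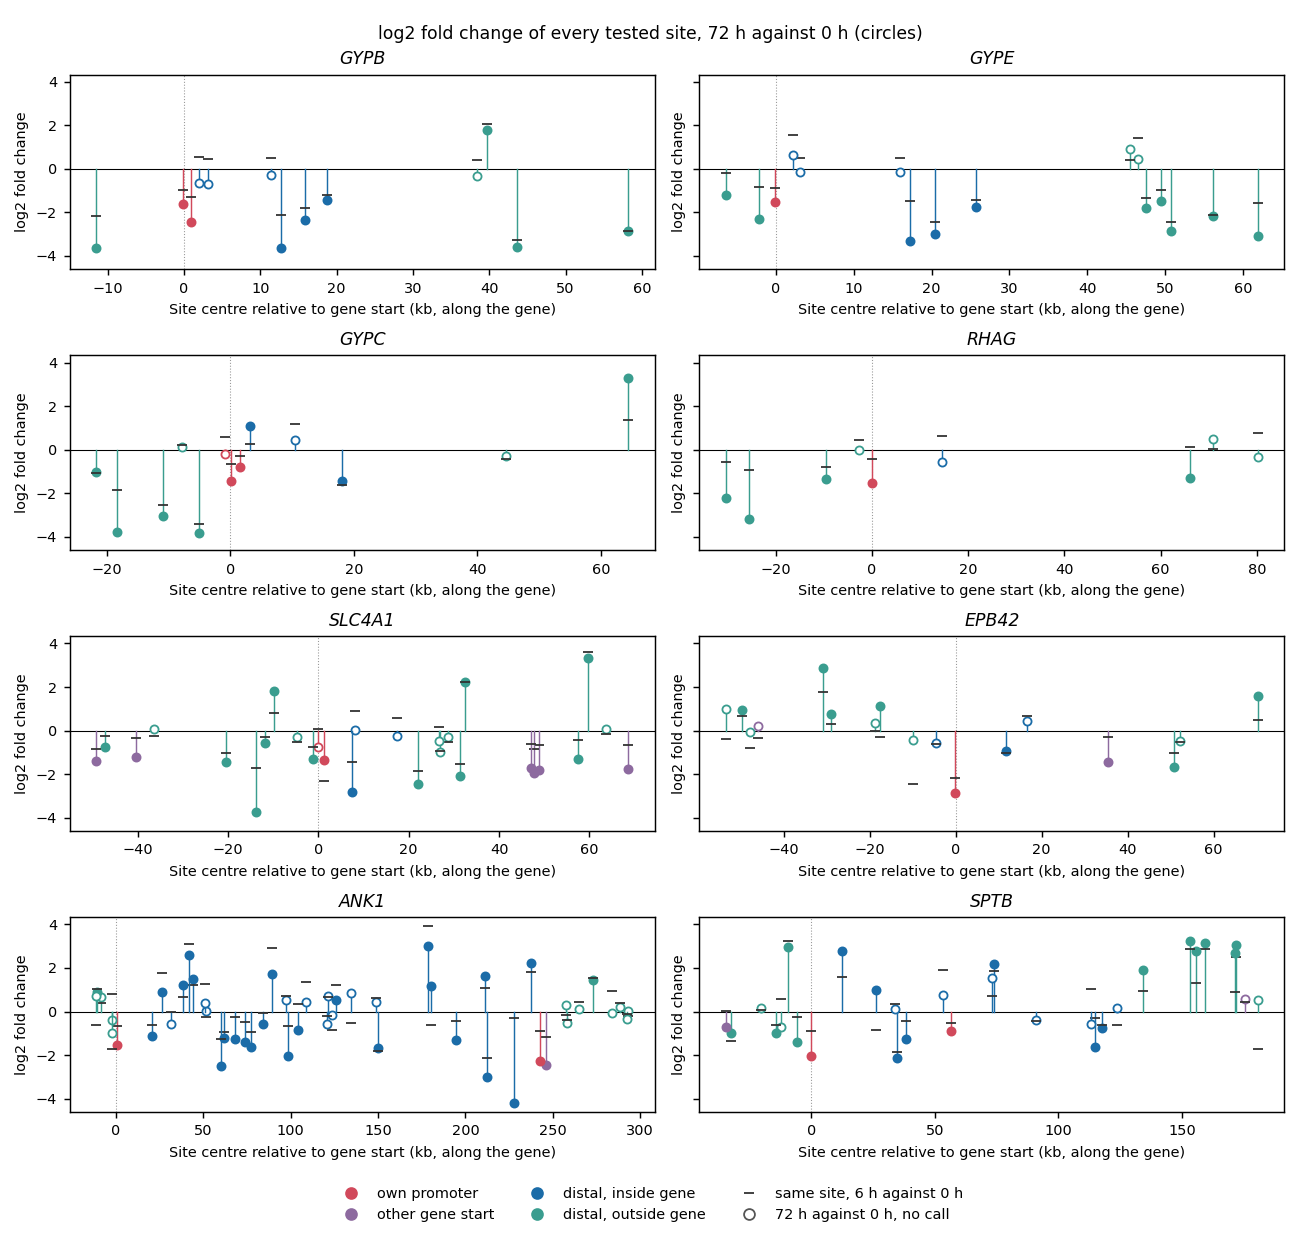
Every tested site of the 8 genes, placed by the distance of its centre from the gene start along the gene (kb, x axis), with its log2 fold change at 72 h against 0 h as a circle and at 6 h against 0 h as a dash (y axis); filled circles passed an adjusted p of 0.05 with TMM scaling, and colours give the class of site. At 72 h sites at GYPE, GYPB, RHAG, SLC4A1 and GYPC lay mostly below 0, whereas SPTB and ANK1 held many sites on both sides of it.

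Over all 8 genes, the 150 tested distal sites counted 35 lower and 30 higher at 6 h, 56 and 33 at 72 h, and 36 and 17 from 6 to 72 h. Their median change was −0.20 at 6 h and −0.32 at 72 h, where all sites away from gene starts had 0.16 and 0.51. From 6 to 72 h, 15.9% of the latter were lower and 24.0% higher. Distal sites inside the genes (68) and outside them (82 tested) had similar shares lower at 72 h, 38.2% and 36.6%. Taken alone, the 26 distal sites at GYPB and GYPE had 16 lower and 1 higher at 72 h, and the 72 at SPTB and ANK1 had 20 lower and 22 higher. The difference between these genes was not tested, and its background is the 24.3% lower and 41.5% higher of all sites away from gene starts.

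**Figure D3:**
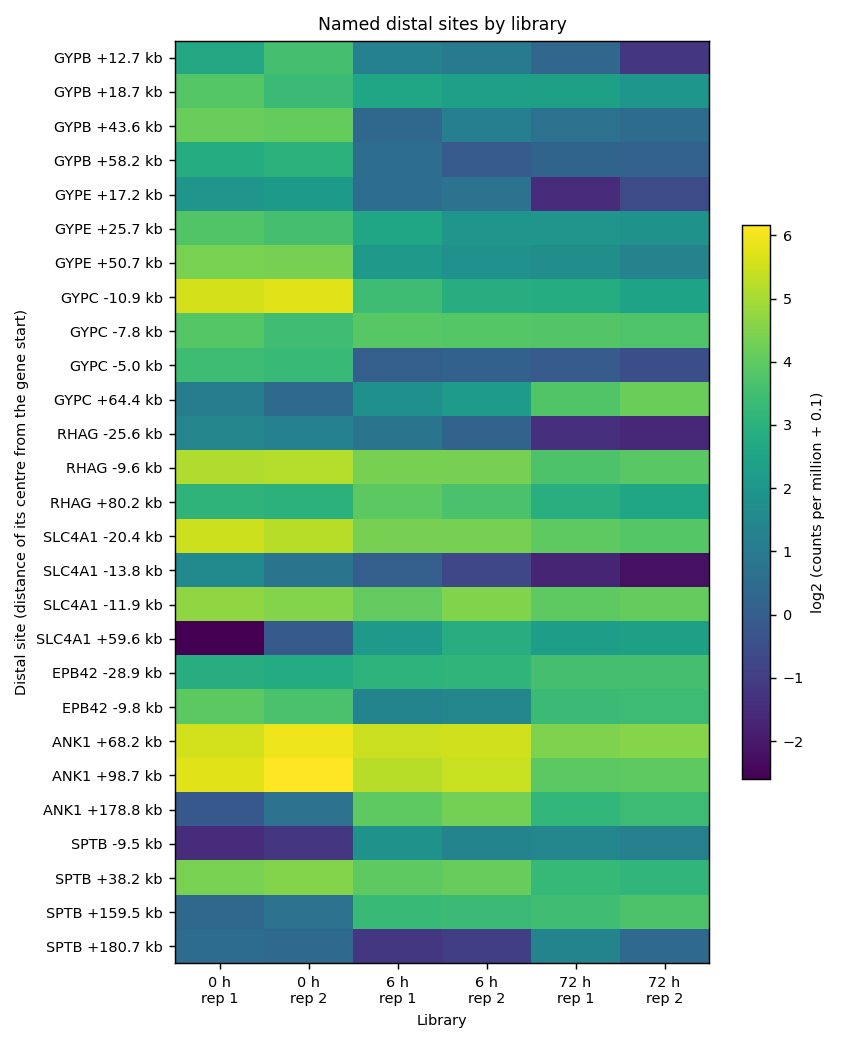
Accessibility of 27 distal sites (rows, named by gene and distance of the site centre from the start) in the 6 libraries (columns), as log2 of TMM-scaled CPM plus 0.1. From 0 to 6 h GYPC −10.9 kb went from 47.9 and 54.2 CPM to 10.7 and 7.15, and GYPB +43.6 kb from 17.6 and 16.9 to 1.19 and 2.15. EPB42 −9.8 kb was lowest at 6 h, and SPTB +159.5 kb and ANK1 +178.8 kb were higher at 6 and 72 h than at 0 h.

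The authors' peak lists, called per library, gave a second view of the same libraries. A peak in both libraries of a time overlapped 62 of the 177 sites at 0 h, 63 at 6 h and 105 at 72 h, which is 35.0%, 35.6% and 59.3%. Of all sites in the table, 27.8%, 31.1% and 62.8% did so. There were 7 sites under a peak in each 0 h library and under none at 72 h (3.95%, against 2.41% of all sites), of which 3 belonged to GYPB, 2 to RHAG and 1 each to GYPC and SPTB. The reverse, no peak at 0 h and one in both 72 h libraries, held for 44 sites (24.9%, against 33.1% of all sites), of which 13 were at ANK1 and 10 at SPTB. Of the 44 distal sites that each 0 h library marked with a peak, 24 were lower and 4 higher at 6 h, and 34 were lower and 3 higher at 72 h. In all sites of that kind 40.2% were lower and 11.8% higher at 6 h, and 63.3% and 9.36% at 72 h. Of the 67 distal sites with no 0 h peak and one later, 24 were higher and 2 lower at 6 h, and 25 were higher and 6 lower at 72 h. There the background was 36.8% higher and 1.86% lower at 6 h, and 65.2% and 2.55% at 72 h. Peaks and counts come from the same reads, so this split fixes part of the direction of each class.

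One value per gene was had by summing the counts of all sites in its window, fitted over 19307 protein-coding genes. These sums also hold sites of neighbouring genes. For GYPB the sum was 87.1 and 90.0 CPM at 0 h, 37.9 and 31.8 at 6 h, then 22.7 and 20.5 at 72 h. For GYPE it was 83.0 and 82.6, then 37.4 and 42.9, then 26.0 and 25.3. The GYPB sum fell by 1.36 ± 0.11 at 6 h and by 2.04 ± 0.11 (adjusted p = 7.5e-11) at 72 h, and the GYPE sum by 1.03 ± 0.11 and 1.69 ± 0.11 (adjusted p = 1.6e-10). By size of the change at 72 h, 0.243% of all genes lay below GYPB and 0.777% below GYPE.

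For SLC4A1 the sum was 366 and 401 CPM at 0 h, 241 and 263 at 6 h, then 158 and 152 at 72 h. It fell by 0.60 ± 0.09 at 6 h and by 1.31 ± 0.09 at 72 h, and together with the sums of GYPB and GYPE it was lower at both times under all 5 scalings. For GYPC the sum was 165 and 193 CPM at 0 h, 101 and 111 at 6 h, then 91.9 and 97.8 at 72 h. Its log2 fold change of −0.76 ± 0.09 at 6 h was called under all 5 scalings, that of −0.92 ± 0.09 at 72 h under 4, turning to 0.05 with factors from shared peaks. For RHAG the sum was 68.7 and 77.2 CPM at 0 h, 62.0 and 57.0 at 6 h, then 33.3 and 32.0 at 72 h, with a log2 fold change of −0.30 ± 0.10 at 6 h, called under 2 of 5 scalings, and of −1.16 ± 0.10 at 72 h, called under 4. The call at 6 h was lost without replicate 2 of 0 h (−0.21) or replicate 2 of 6 h (−0.29).

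For EPB42, ANK1 and SPTB the losses at the start sites defined above had no counterpart at 72 h in the window sum that held under all scalings. The EPB42 sum was 136 and 121 CPM at 0 h, 96.7 and 93.6 at 6 h, then 92.1 and 99.5 at 72 h. The ANK1 sum was 323 and 384 CPM at 0 h, 381 and 421 at 6 h, then 243 and 262 at 72 h. The SPTB sum was 131 and 126 CPM at 0 h, 128 and 111 at 6 h, then 110 and 105 at 72 h. With TMM their log2 fold changes at 72 h were −0.43, −0.49 and −0.25, all called lower. Each took the opposite sign with total counts, loess offsets or factors from shared peaks, reaching 0.54, 0.55 and 0.72. No direction can be given for these 3 sums at 72 h. At 6 h the EPB42 sum had a log2 fold change of −0.44 ± 0.09 (adjusted p = 0.00058), lower under 4 of 5 scalings. With TMM the ANK1 sum (0.18) and the SPTB sum (−0.11) were not called at 6 h. At 6 h the ANK1 sum was 0.31 and called higher without replicate 2 of 0 h, and at 72 h the SPTB sum was −0.22 and not called without replicate 2 of 72 h.

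With TMM, 6 of 8 sums were lower at 6 h, 8 of 8 at 72 h and 5 of 8 from 6 to 72 h, and 0 were higher in any comparison. Over all 19307 genes 47.4%, 71.3% and 68.0% were lower in these comparisons and 14.7%, 15.8% and 12.7% higher. The median of the 8 sums was −0.52 at 6 h and −1.04 at 72 h, and that of all genes −0.23 and −0.72. At 72 h the 8 were thus 5 below and 3 above the median gene. Under the other scalings the count at 72 h was 8 lower (RLE), 5 lower and 1 higher (total counts), 5 lower and 2 higher (loess offsets) and 3 lower and 3 higher (factors from shared peaks). The median of all genes at 72 h was then −0.90, −0.22, −0.13 and 0.25 in that order, and the shares of all genes called are not given here.

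**Figure D4:**
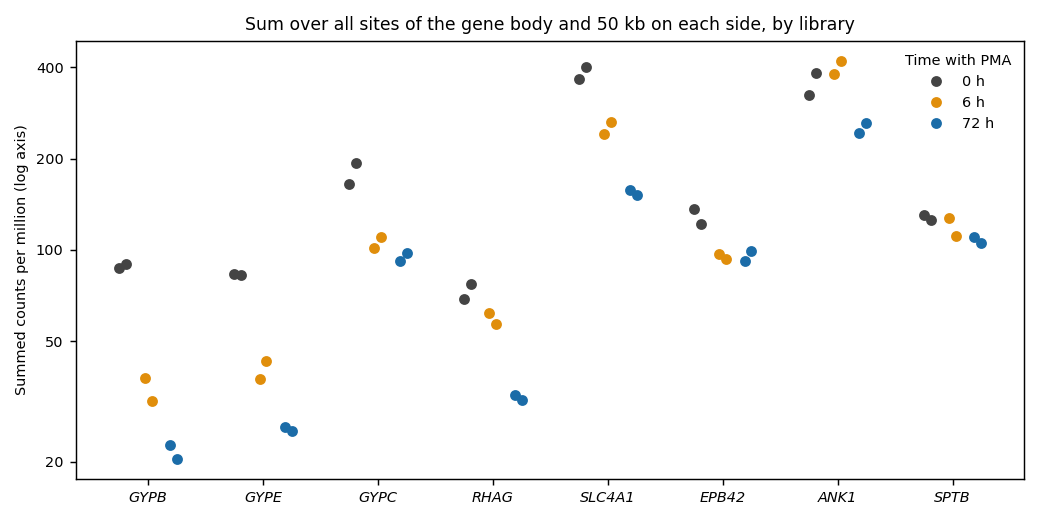
CPM (TMM, log axis) summed over all sites in the window of each gene, 1 point per library, coloured by hours of PMA. The 0 h libraries of GYPB and GYPE (between 82.6 and 90.0) stood far above those at 72 h (between 20.5 and 26.0), while the 3 times lay close together for SPTB (between 105 and 131); the 72 h direction of the ANK1, EPB42 and SPTB sums turned with 3 of the 5 scalings and that of GYPC with 1.

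The other genes of the red cell membrane and of the blood groups, 35 in the list used, gave a tested sum for 34, ABO not among them. Of these 34, 23 were lower and 2 higher at 6 h, 26 were lower and 3 higher at 72 h, and 24 were lower and 5 higher from 6 to 72 h. Over all genes 47.4%, 71.3% and 68.0% were lower in these comparisons and 14.7%, 15.8% and 12.7% higher. The numbers lower at 72 h and from 6 to 72 h were thus near the shares of all genes. The median of the 34 was −0.32 at 6 h and −0.85 at 72 h, where that of all genes was −0.23 and −0.72. Among those lower at 72 h was ACHE, which encodes acetylcholinesterase, the carrier of the Yt antigens (log2 fold change −1.51 ± 0.09). Among the 3 that rose, the largest changes were at CD44, the hyaluronan receptor that carries the Indian antigens (34.2 and 38.5 CPM at 0 h, 180 and 195 at 72 h, log2 fold change 2.36 ± 0.11), and at CD59, an inhibitor of complement lysis (0.28 ± 0.09, not called with RLE factors). In their pair of changes at 6 and 72 h, BSG and TFRC came closest to the median of the 8 genes, at distances of 0.101 and 0.133 on the log2 scale over these 2 comparisons.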

How the data were processed

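The data were 6 ATAC-seq libraries, 2 each at 0, 6 and 72 h. The authors deposited a table of whole-number counts per site and library, with no scaling, next to their log2 fold changes and adjusted p-values for each site, which were not used to call changes. They also deposited a peak list per library with a score, a fold enrichment and −log10 p and q, of which only the positions were used. The submitters' processing notes name hg38, Trim Galore 0.4.3, BWA 0.7.17, SAMtools 1.9, deepTools 3.0.1, MACS2, bedtools 2.26 and DESeq, with no role or order. Read filters, any shift of read ends and the making of the site list are not given in the sources used here, and these steps can affect levels near site edges and at repeated sequence.

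Counts were fitted with edgeR 4.0.16 in R 4.3.3 (TMM factors, default filter with a minimum of 10 counts, glmQLFit and glmQLFTest on 3 time groups, all 6 libraries), which tested 177759 sites and removed 3376. Calls use a Benjamini-Hochberg adjusted p under 0.05 over all tested sites. Sums over gene windows were fitted over 19307 protein-coding genes with the factors of the site table. Replicates differed by more than sampling noise (chi-square per degree of freedom 3.54 to 5.53). Gene intervals come from a RefSeq table of GRCh38.p14 without exons, so sites are given as inside or outside a gene only. Alternatives were 4 other scalings, no filter, DESeq2 1.42.0, a stricter threshold, a replicate block, each library left out and shorter windows.

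Named sites are every start site, the 2 distal sites of each gene with the highest mean CPM, and in each comparison the 3 called sites with the largest change in each direction among those averaging 1 CPM or more whose libraries did not overlap. Of the other red cell genes, the text names the 2 largest changes at 72 h in each direction and the 2 closest to the median of the 8 genes. One result that this rule names is not reported here. The 8 genes, the other red cell genes, the markers and the motifs were chosen with earlier results of these data known.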

Additional observations from a re-analysis of the deposited data

Results flagged for a closer look

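Sites that changed one way by 6 h and the other way from 6 to 72 h, each by more than 1 on the log2 scale and past an adjusted p of 0.05 in edgeR's quasi-likelihood test, numbered 4 of 175, where 3.11% of all tested sites did so. Both steps share the 6 h libraries. The ANK1 site at +89.4 kb (chr8:41806932-41807760) went from 3.31 and 5.64 CPM at 0 h to 31.6 and 37.5 at 6 h, then to 14.1 and 15.8. It rose by 2.93 ± 0.22 and then fell by 1.21 ± 0.20 (log2 fold change −1.21, adjusted p = 4.4e-05), and stayed above 0 h. The SPTB site at +53.4 kb (chr14:64826226-64826815), near the second listed start, went from 0.975 and 0.621 CPM to 2.90 and 2.94, then to 1.34 and 1.32, and its later change was −1.13 ± 0.34 (adjusted p = 0.011). The EPB42 site at −9.8 kb went the other way, with a later rise of 2.02 ± 0.24 to 10.1 and 10.5 CPM, where 0 h had 15.4 and 12.4. The SPTB site at +180.7 kb fell by 1.70 ± 0.53 by 6 h (adjusted p = 0.014), a call lost without replicate 2 of 6 h (−1.94), and then rose by 2.22 ± 0.49 (adjusted p = 0.0010). Its 6 h values of 0.341 and 0.411 CPM rest on 4 and 13 counts.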

How the results depend on the processing

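Libraries of the same replicate number also share a code in the names of their count columns, and the labels do not say what it stands for. Their replicate deviations were weakly correlated across times (r 0.0762 to 0.131), which cannot settle whether they share an origin. The main test used no pairing. With the replicate block no call was lost, 1 sum was called higher at 6 h in place of 0, and calls were gained for the ANK1 sum at 6 h (0.18), the GYPC sum from 6 to 72 h (−0.16) and 4 named sites.

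Depth was lowest in replicate 1 of 6 h, and weak sites with few counts there carry wide errors. Of the values for named sites under an alternative, 1444 kept direction and call, 48 gained the call, 91 lost it and 17 took the opposite sign; for sums these numbers were 246, 11, 12 and 19. A sign that turned with neither value called was counted as unchanged. Without the low-count filter no named call changed. Where a scaling turned a sign, the cause was not tested. Shorter windows and the stricter threshold hold fewer sites by construction. Shares of all sites or genes under these alternatives are not given here.

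Sites higher at 6 h numbered 15 with no extension of the genes and 17 with 10 kb (31 with 50 kb). Those lower at 6 h numbered 24 and 30, and 26 at the stricter threshold of adjusted p under 0.01 and a change above 1 (49 in the main test). Sites higher at 72 h numbered 55 with total counts, 73 with factors from shared peaks, 14 with no extension and 17 with 10 kb (33). Those lower at 72 h numbered 45 with shared peaks, 38 with no extension and 46 with 10 kb (77). From 6 to 72 h, sites higher numbered 31 with total counts, 46 with shared peaks, 10 with DESeq2, 9 at the stricter threshold, 7 with no extension and 9 with 10 kb (18). Those lower numbered 28 with total counts, 12 with shared peaks, 23 at the stricter threshold and 32 with no extension (54). Leaving out 1 library gave 9 to 21 higher and 27 to 58 lower from 6 to 72 h.

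Sums called higher at 6 h numbered 1 with total counts, loess offsets or shared peaks, and 0 to 1 with 1 library left out. At 72 h, 1 was higher with total counts, 2 with loess offsets and 3 with shared peaks, and 5, 5 and 3 were lower. From 6 to 72 h, 3 were higher under each of these scalings, and 3 were lower with loess offsets and 0 with shared peaks.

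With total counts, loess offsets and shared peaks in that order, signs turned for the SPTB sum at 72 h (0.25, 0.37, 0.72) and from 6 to 72 h (0.22, 0.35, 0.53), the ANK1 sum at 72 h (0.015, 0.55, 0.48), the EPB42 sum at 72 h (0.073, 0.16, 0.54) and the GYPC sum from 6 to 72 h (0.20, 0.34, 0.51). The ANK1 sum from 6 to 72 h turned with loess offsets (0.089) and shared peaks (0.0056). Shared peaks alone turned the GYPC sum at 72 h (0.050) and the GYPE sum from 6 to 72 h (0.019).

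Among sites, shared peaks turned the GYPE start (0.0029), the GYPB start (0.062) and GYPC −7.8 kb (0.60) from 6 to 72 h, and RHAG +80.2 kb (0.65), SPTB +56.5 kb (0.090), EPB42 −9.8 kb (0.54) and GYPC −0.8 kb (0.76) at 72 h. Loess offsets and shared peaks turned RHAG −9.6 kb (0.13, 0.12) and SLC4A1 −20.4 kb (0.29, 0.24) from 6 to 72 h, SLC4A1 −11.9 kb (0.022, 0.39) at 72 h, and GYPC +1.5 kb at 72 h (0.15, 0.18) and from 6 to 72 h (0.28, 0.15).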

Other observations

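In the authors' deposited table, the class names given to sites often did not follow the sign of the log2 fold changes in the same rows, and they were not used. Of 8943 sites named downEarly there, 30.5% had a log2 fold change below 0 at 72 h, and of 5431 named upEarly 30.7% did. Among the sites of the 8 genes, the authors' deposited table names 26 upLate, of which 19 had a log2 fold change below 0 at 72 h, and 135 static, of which 90 did. Of all sites so named, 28.9% of the upLate and 52.4% of the static ones were below 0 at 72 h.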
